A study of Mus musculus with 6 samples.

Results

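Cluster 10 is 1 of the 16 clusters into which the authors divided the epithelial cells of uteri from mice given diethylstilbestrol (DES) as newborns. Its members were taken from the deposited cluster labels, and 166 of the 167 cells so labelled have counts. They are 3.60% (exact Clopper-Pearson 95% interval 3.08 to 4.18) of the 4608 DES cells with an epithelial cluster and a count column. All 166 were annotated as epithelial. The other 4442 clustered DES cells, in clusters 0 to 9 and 11 to 15, are the comparison throughout.

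The uteri came from CD-1 mice aged 12 months that had received subcutaneous corn oil (CO, the control) or DES in corn oil at 1 mg/kg/day on days 1 to 5 after birth, and the study asked how that exposure changed uterine epithelial cells in later life. DES mice were in persistent estrus, and CO mice were taken in estrus. For single cells, 1 library per treatment was made from pooled uteri, 2 for CO and 4 for DES, and 2 CO and 2 DES sections, from 1 mouse each, were measured by spatial transcriptomics. The labels do not tie a cell to a mouse, so a cluster and a mouse cannot be told apart.

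Uterine epithelium lines the lumen and forms the glands, and its growth and secretion follow estrogen and progesterone. DES is a synthetic estrogen, and exposure of newborn rodents permanently changes how this epithelium differentiates. In clusters built from single cells, a group can be set apart by genes of its own or by the amount of RNA read from its cells, so both were described for cluster 10.

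Cluster 10 had the lowest median number of transcripts per cell of the 16 clusters. The unit is the UMI, a molecular barcode that counts each captured RNA molecule once. Its cells held a median of 6343.5 UMIs, with a range from 1022 to 131636, against a median of 25374 UMIs in the other clustered cells. The next lowest cluster, cluster 3, had a median of 14770 UMIs. By the mean, cluster 3 was lower, at 17895 UMIs per cell against 19692 in cluster 10. Of the 49 clustered cells with under 3000 UMIs, 37 were in cluster 10, and of the 295 with under 10000 UMIs, 106 were in it (35.9%, exact 95% interval 30.5 to 41.7). The cluster was thus made of 106 shallow cells and 60 deep cells with at least 10000 UMIs. Cells on the same side of 10000 UMIs still differed in depth, with a median of 4238.5 UMIs in the shallow cells of cluster 10 against 7280 in those of the other clusters, and 31278.5 against 26741 in the deep cells. Its reads were few as well, with a median of 15358 reads per cell against 64340. The median sequencing saturation, which is the share of reads that repeat a molecule already seen, was 0.59 against 0.61.

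The summed RNA of the cluster came from few cells. Cluster 10 held 3268839 UMIs in all, of which the 20 deepest cells gave 55.5% and the 60 cells with at least 10000 UMIs gave 85.7%. A value from summed UMIs therefore describes mainly the deep cells, and a mean over cells describes mainly the shallow ones. Ratios are from summed UMIs unless the mean over cells is named. Scrublet, which scores cells for being 2 cells in 1 droplet, marked none of the 166 cells and 3 of the 4608.

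**Figure D1:**
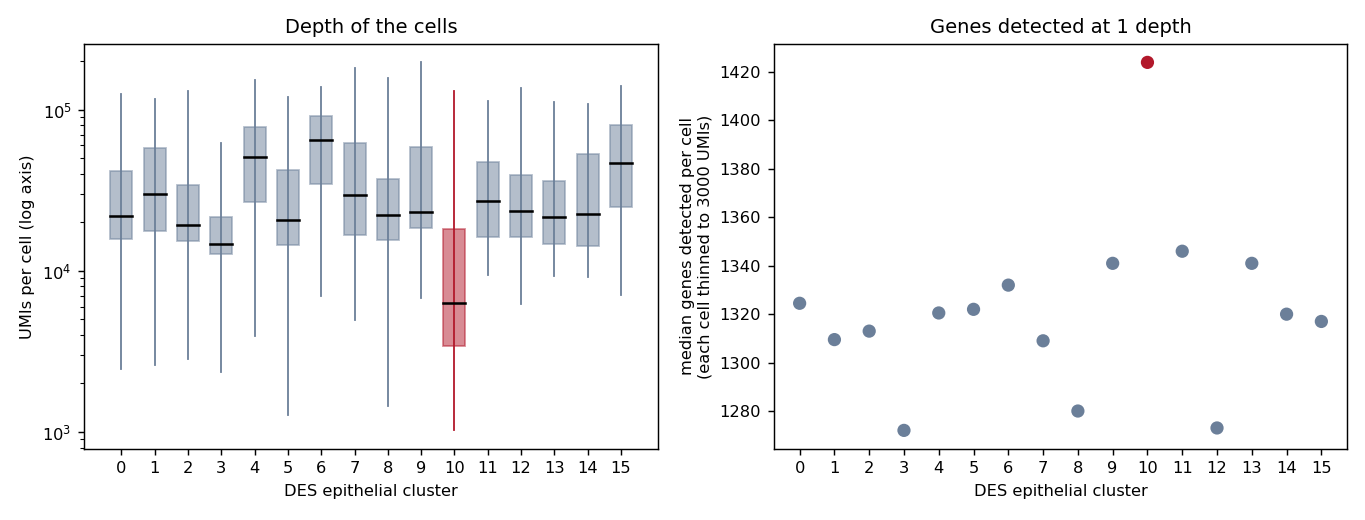
UMIs per cell in each of the 16 DES epithelial clusters (left, log axis; line from the lowest to the highest cell, box over the middle 50% of cells, black bar at the median) and the median number of genes detected per cell after every cell was thinned to 3000 UMIs (right). Cluster 10, in red, has the lowest median depth, 6343.5 UMIs, and the most genes at a fixed depth, 1424.

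At a fixed depth the cells of cluster 10 showed more different genes than those of any other cluster. Without thinning, they had a median of 2444 genes per cell against 5023.5 in the others. When each cell was reduced at random to 3000 UMIs, which left out 37 cells of cluster 10 and 12 of the others, the 129 remaining cells had a median of 1424 genes against 1311, and the medians of the other 15 clusters lay between 1272 and 1346. At 1000 UMIs, where all cells could be used, the median was 613 genes against 557 to 590 in the other clusters. The order was the same in both depth classes at 3000 UMIs. The shallow cells of cluster 10 had 1448 genes against 1381 in those of the other clusters, and its deep cells had 1376.5 against 1310. The shallow cells of the other clusters were thus also above the 1272 to 1346 of whole clusters. The part of the many shallow cells in the lead of cluster 10 was not tested.

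Measures related to RNA quality were mixed. The median share of mitochondrially encoded UMIs was 10.9% in cluster 10, within the range of the other 15 clusters (7.90% to 13.2%), and the shallow cells of cluster 10 had 10.2% against 13.7% in the shallow cells of the other clusters. *Malat1*, a long noncoding RNA kept in the nucleus, made up a median of 0.345% of UMIs against 0.740% in the other cells, and 1 cluster, cluster 6, was lower (0.258%). That difference was present at low depth too, with 0.436% in the shallow cells of cluster 10 and 0.946% in the shallow cells of the other clusters. Haemoglobin transcripts, which epithelial cells do not make and which mark free RNA from red blood cells, were at a median of 0.0358% against 0.0729%. The part of depth and RNA quality in the gene values below was not tested.

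The epithelial label held for cluster 10. *Epcam*, an adhesion molecule of epithelial cells, was detected in 150 of its 166 cells and stood at 724 counts per 1000000 UMIs (CPM; exact Poisson 95% interval 695 to 754) in the summed cells, against 808 CPM in the other clusters, the lowest of the 16 clusters by a small margin (740 CPM in cluster 4). Of 12 genes for epithelial identity, each at 50 CPM or more in cluster 10 or in the other clusters, none was 2-fold higher or lower from summed UMIs. Over all genes at that level, 0.0684% were 2-fold higher and 0.308% lower, so none of 12 says little. In this list 3 genes had a ratio above 1, beside 60.7% of all genes. It summed to 5278 CPM, 13 in the order of 16. Within that list *Cdh1*, the E-cadherin of adherens junctions, was highest in cluster 10 of all 16 clusters, at 279 CPM against 181 CPM (ratio 1.54, interval 1.44 to 1.64), and past 2-fold by the mean over cells, at 377 against 174 CPM (ratio 2.16). *Krt18*, a keratin of simple epithelia, was lowest in cluster 10 of all 16, at 482 CPM against 683 CPM (ratio 0.71, interval 0.67 to 0.74, or 0.57 by the mean over cells). These intervals, like all those given for cells, cover counting error only.

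*Crh*, which encodes corticotropin-releasing hormone, was at the pooled average of the DES epithelium. It stood at 144 CPM (interval 131 to 157) in cluster 10 and at 143 CPM in the other clusters, with 434 CPM in cluster 0 at the top and 1.84 CPM in cluster 13 at the bottom. Cluster 10 was 4 in the order of 16, and its ratio to the median of the other 15 clusters was 1.65. Its UMIs were found in 59 of the 166 cells, and the 5 cells with most of them held 41.5%. After thinning to 3000 UMIs, 20.9% of cluster 10 cells and 21.2% of the others had a *Crh* UMI. In the summed CO epithelial cells *Crh* stood at 0.0381 CPM.

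The summed markers of other cell types lay inside or below the range of the other clusters for each list named here, although some single genes were highest in cluster 10. The authors had taken out DES cells with both *Krt14* and *Trp63*, a pair that marks basal cells, before they made these clusters, so few or no such cells could be found here. *Trp63* had no UMI in cluster 10. The basal list of 10 genes summed to 363 CPM, 7 in the order of 16, against 162 to 835 CPM in the other clusters. Within it *Krt5*, a keratin of basal cells, was at 85.7 CPM, 4 in the order, where the median of the other clusters was 19.9 CPM. The 3 genes of the list at 50 CPM all had ratios above 1, beside 60.7% of all genes. The highest was 1.57 for *Itga6*, the integrin alpha 6 of basement membrane contacts. Apart from *Trp63*, members under 50 CPM lay on both sides of 1, from 0.54 for the keratin *Krt15* to 1.39 for the collagen *Col17a1*. The keratin *Krt14* was at 0.67 from summed UMIs and 1.83 by the mean over cells. The endothelial list of 8 genes summed to 1.22 CPM, below the 1.65 to 9.33 CPM of the other clusters, with *Cdh5*, *Emcn*, *Plvap* and *Cldn5* at 0. The lymphocyte list of 8 genes summed to 7.34 CPM, 3 in the order of 16 (1.80 to 20.6 CPM in the other clusters), with 7 of its genes at 0. The smooth muscle list of 8 genes summed to 5.81 CPM, 4 in the order (1.91 to 7.62 CPM), with 5 at 0, *Myh11* among them. Its member *Tagln* was at 3.37 CPM against 1.31 CPM (11 UMIs, ratio 2.58, interval 1.27 to 4.71). The endothelial, lymphocyte and smooth muscle lists held 4, 24 and 19 UMIs in cluster 10, so a gene at 0 says little. The stromal list of 10 genes summed to 160 CPM within a range of 98.3 to 246 CPM in the other clusters, with *Dpt*, *Pdgfra* and *Foxl2* at 0. In that list cluster 10 was the highest of 16 for the collagen genes *Col6a3*, at 5.20 CPM against 1.56 CPM (17 UMIs, ratio 3.33, interval 1.91 to 5.44), and *Col1a2*, at 12.8 CPM against 6.51 CPM (42 UMIs, ratio 1.97, interval 1.41 to 2.69, or 2.58 by the mean over cells), both under the 50 CPM needed below. The myeloid list of 9 genes summed to 367 CPM, inside the other clusters' 195 to 614 CPM.

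The cells of cluster 10 were spread over the authors' integrated epithelial clusters, which were drawn on CO and DES cells together. The 166 cells fell into 9 of those clusters, with 60 in integrated cluster 2, 25 in cluster 3, 20 in cluster 9, 18 in cluster 5, 16 in cluster 6 and 15 in cluster 4. The largest share, 36.1%, was the lowest of the 16 DES clusters, in the others of which the largest share ran from 45.5% to 85.8%. The same integrated cluster was the most common one at both depths, with 34 of the 106 shallow and 26 of the 60 deep cells.

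Each cell was also set against the summed profiles of the other 15 DES clusters and given to the one under which its counts were most likely. Cluster 0 took 43 of the 166 cells (25.9%), cluster 1 took 33, cluster 11 took 23, cluster 6 took 19 and cluster 4 took 16, and 14 of the 15 clusters took at least 1. Of the other clustered cells, 15.1% are in cluster 0, 12.1% in cluster 1 and 3.65% in cluster 11. The deep cells were more concentrated than the shallow ones, with 24 of 60 against 19 of 106 in cluster 0. Of the other clusters' cells, thinned to 3000 UMIs and with their own profile among the choices, 79.8% went to their own cluster.

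Few genes set cluster 10 apart from the rest when its UMIs were summed. Of 2926 genes with at least 50 CPM in cluster 10 or in the other clusters, 2 were at least 2-fold higher (0.0684% of the genes) and 9 at least 2-fold lower (0.308%). The ratio was above 1 for 60.7% of the genes, and the median log2 ratio was 0.07. Since the clusters were formed on these same counts, the ratios are a description with no test. *Abhd2*, a lipid hydrolase (chromosome 7, 79273199 to 79365508, GRCm38), was at 54.5 CPM against 25.4 CPM, a ratio of 2.14 (interval 1.84 to 2.49). *Pla2r1*, the M-type phospholipase A2 receptor (chromosome 2, 60417543 to 60553308), was at 66.4 CPM against 32.4 CPM, a ratio of 2.05 (interval 1.78 to 2.35). For neither did the interval leave out a ratio of 2, and *Abhd2* was under it when only cells on the same side of 10000 UMIs were compared.

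The 20 genes with the highest ratios were moderately expressed, at 52.9 to 266 CPM, and cluster 10 was the highest of the 16 clusters in 12 of them and ranked no lower than 4 in the others. *Meis2*, a homeobox factor, was at 239 CPM against 138 CPM (ratio 1.73), although cluster 5 was higher still (350 CPM). *Nfia*, a nuclear factor I protein, was at 95.8 CPM against 59.9 CPM (ratio 1.60), *Trps1*, a GATA-type repressor, had a ratio of 1.57, and *Setd1b*, part of a histone H3 lysine methyltransferase, and *Pwwp2a*, which binds the histone variant H2A.Z, had ratios of 1.63 and 1.73.

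*Car12*, a membrane carbonic anhydrase, was at 132 CPM against 80.1 CPM (ratio 1.65). *Gcnt3*, which branches the sugar chains of mucins, was at 151 CPM against 96.0 CPM (ratio 1.57), and *Cmah*, which makes a form of sialic acid, at 81.1 CPM against 44.7 CPM (ratio 1.81). *Gda*, guanine deaminase, had a ratio of 1.86, *Slc39a1*, a zinc importer, one of 1.59, *Gbp4*, an interferon-induced GTPase, one of 1.75, and *Rps6ka3*, a ribosomal S6 kinase, one of 1.60. *Sprr2a3*, a precursor of the cornified envelope, was at 186 CPM against 115 CPM (ratio 1.62), but at a ratio of 0.86 without the 20 deepest cells of cluster 10, and counts of this gene are uncertain because near-identical copies lie beside it. The remaining 5, *AC111067.4*, *Fndc1*, *RP23-219K12.1*, *Fam102a* and *RP23-369M17.1*, had ratios from 1.62 to 1.76. The threshold between the 20th and the next gene was narrow, with *Trps1* and *Rnf152* both at 1.57.

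The shares of cells with these genes at a fixed depth are a description, since a share of 10% in cluster 10 was part of the choice. After thinning to 3000 UMIs, each of the 20 was detected in 14.7% to 51.9% of cluster 10 cells and in 7.52% to 37.5% of the other cells. Of all 2776 genes past the same floors, 62.6% were detected in a larger share of cluster 10 cells. *Slc39a1* was detected in 44.2% against 18.3% of cells, *Abhd2* in 25.6% against 7.52%, and *Car12* in 37.2% against 19.5%.

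The genes with the lowest ratios described other clusters more than cluster 10. Cluster 10 ranked between 5 and 14 of the 16 clusters for these 10 genes, and for 6 of them it was among the upper 8 while a few other clusters had far higher values. *Cyr61*, a secreted matrix protein, was at 17.7 CPM against 64.8 CPM (ratio 0.27, interval 0.21 to 0.35), but cluster 9 alone stood at 935 CPM and cluster 10 was 7 in the order. *Fos*, a subunit of the AP-1 factor (chromosome 12, 85473890 to 85477273), was at 84.7 CPM against 185 CPM (ratio 0.46), with 2519 CPM in cluster 9, and cluster 10 was 5 in the order. *Olfm4*, a secreted olfactomedin (chromosome 14, 79984081 to 80023139), was at 19.6 CPM against 59.4 CPM (ratio 0.33), with 685 CPM in cluster 5.

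The class II major histocompatibility genes showed the same pattern. They present peptides to helper T cells. In the list 3 of the 7 genes reached 50 CPM, all 3 at or under a ratio of 0.5, beside 0.308% of all genes. All 3 are among the 10 genes chosen for the lowest ratios, and *H2-Ab1* and *H2-Aa* reached 50 CPM only in the other clusters. These 2 could therefore only come out lower, and the count is a description. *H2-Ab1* (chromosome 17, 34257689 to 34269419) was at 23.9 CPM against 73.7 CPM, *H2-Aa* (chromosome 17, 34282744 to 34287823) at 29.7 CPM against 71.8 CPM, and *Cd74*, their invariant chain, at 240 CPM (interval 223 to 257) against 547 CPM. Cluster 10 was 8 of 16 for each, between clusters 1, 2, 5, 6, 7, 9 and 15 on one side, where *Cd74* ran from 699 to 1628 CPM, and clusters 0, 3, 4, 8 and 11 to 14 on the other, where it ran from 32.6 to 135 CPM. The summed list was at 338 CPM in cluster 10 and between 62.8 and 2384 CPM in the other clusters, with a median of 197 CPM.

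In the other 4 genes of this group cluster 10 was below the middle of the order. *Yam1* was at 63.9 CPM against 145 CPM (ratio 0.44), 14 of 16, and *Rad51b*, a protein of recombination repair, at 57.2 CPM against 112 CPM (ratio 0.51), also 14 of 16. *Clu*, a secreted chaperone, and *Serpinb7*, a protease inhibitor, were both 11 of 16, at ratios of 0.46 and 0.47. *Yam1* was the one gene of the 10 with a ratio of 0.5 or less against each of the means compared: 0.34 by the mean over cells, 0.42 against the median of the other 15 clusters and 0.33 against cluster 0 alone. Without the 20 deepest cells of cluster 10 its ratio was 0.78.

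**Figure D2:**
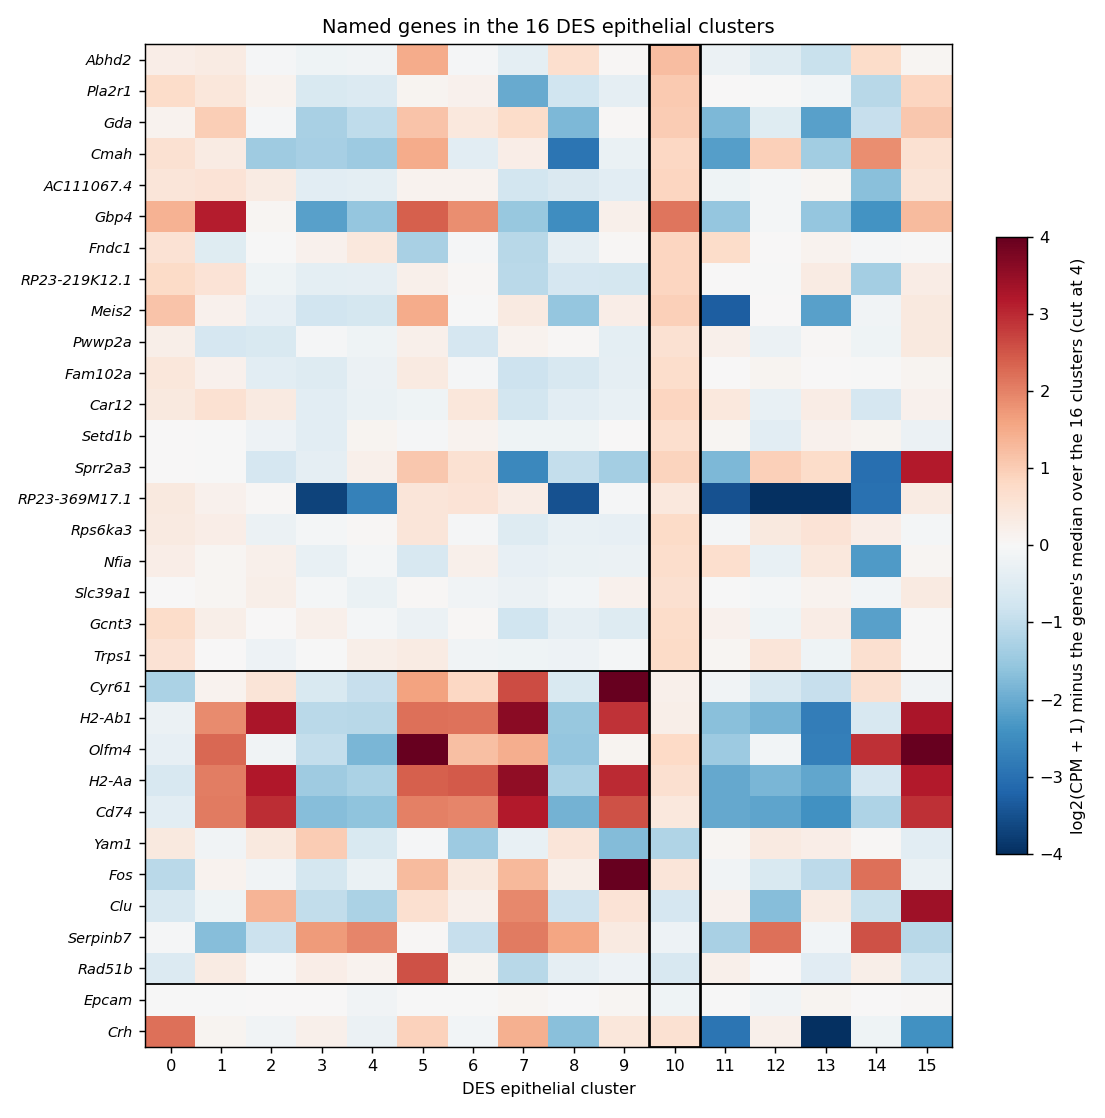
log2(CPM + 1) of each gene, from summed UMIs, minus its median over the 16 DES epithelial clusters, for the 20 genes with the highest ratios in cluster 10 (top), the 10 with the lowest (middle) and the markers Epcam and Crh (bottom); colours are cut at 4. The boxed column, cluster 10, is pale red across the upper genes and near the median for the class II genes, which are dark red in clusters 2, 7 and 15, and for Fos and Cyr61, which are dark red in cluster 9.

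How the cells were weighted changed which genes stood out. By the mean over cells of counts per 10000 UMIs, which weights a shallow cell as much as a deep one, 43 of 3199 genes were at least 2-fold higher (1.34%) and 9 at least 2-fold lower (0.281%), and 1 of the 2 genes above and 5 of the 9 were shared with the summed values. *Abhd2* had a ratio of 3.18 by that mean, *Slc39a1* 3.04 and *Gda* 2.46, while *Pla2r1* had 1.58 and *Sprr2a3* 1.04. *Pam*, which amidates peptide hormones, was not among the 20 genes and was chosen here after its values were seen, because its mean over cells, 880 CPM against 338 CPM, was among the largest ratios at a high level (ratio 2.60, or 1.54 from summed UMIs). *Fos* lay at 0.93 and *Clu* at 1.32 by the mean over cells.

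Against the median of the other 15 clusters, 16 genes were at least 2-fold higher and 2 at least 2-fold lower, and 6 of the 10 low genes then lay above 1. The class II genes were at 1.43 (*H2-Ab1*), 2.50 (*H2-Aa*) and 1.78 (*Cd74*) on that scale, and *Fos*, *Cyr61* and *Olfm4* at 1.55, 1.28 and 1.98. The 20 high genes all stayed above 1, between 1.38 and 4.83, the last being *Gbp4*. The other 4 low genes stayed below 1, at 0.42 (*Yam1*), 0.54 (*Clu*), 0.64 (*Rad51b*) and 0.83 (*Serpinb7*).

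**Figure D3:**
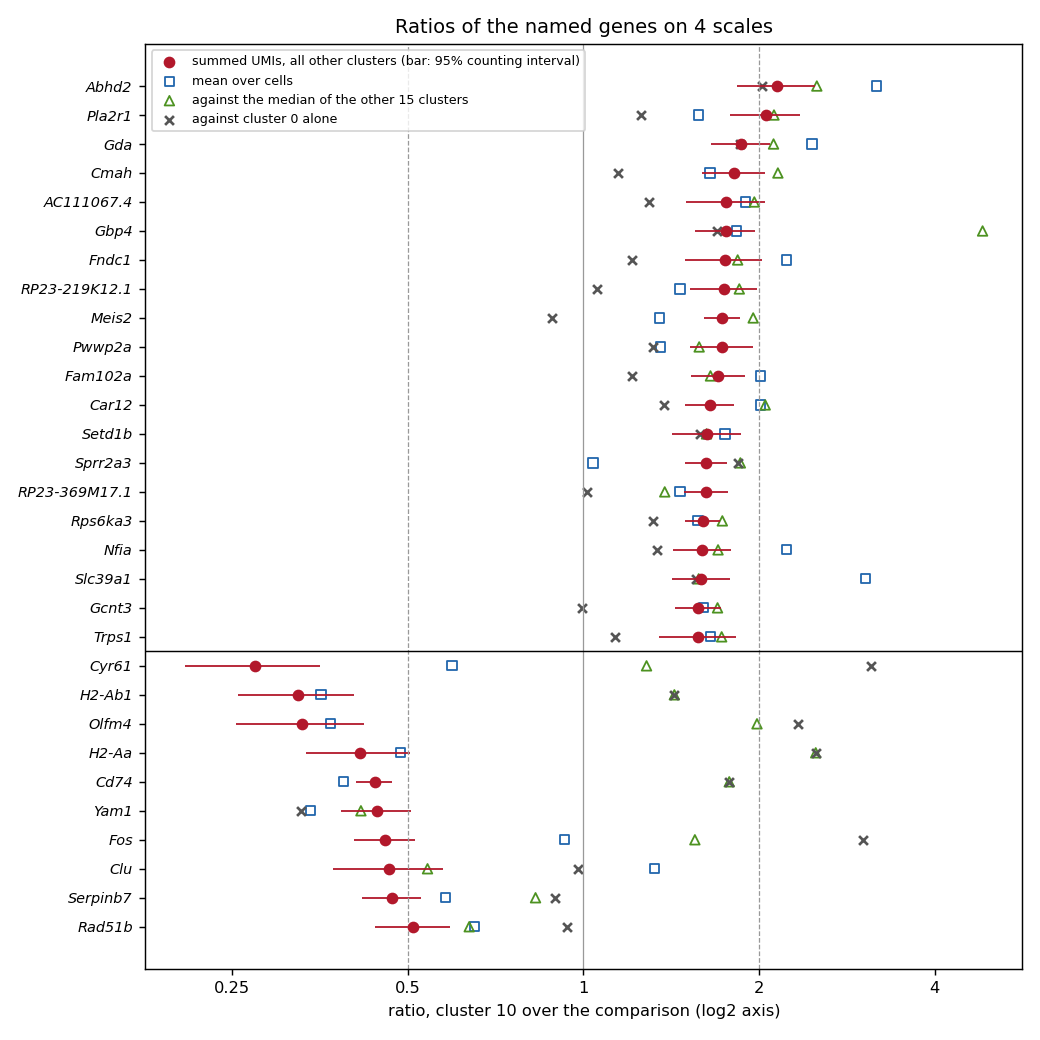
Ratio of cluster 10 to the comparison (log2 axis) for the 20 highest and the 10 lowest genes, from summed UMIs against all other clusters (red, with the 95% counting interval), from means over cells (blue squares), against the median of the other 15 clusters (green triangles) and against cluster 0 alone (grey crosses). The upper genes lie right of 1 on nearly every scale, while Cyr61, Olfm4, Fos and the class II genes change sides.

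The shallow and the deep members of the cluster differed from gene to gene. Of the 20 high genes, 12 had a higher mean over cells in the 106 shallow members than in the 60 deep ones. *Slc39a1* was at 256 CPM in the shallow and 102 CPM in the deep members, and *Abhd2* at 110 and 62.8 CPM. *Meis2* went the other way, at 158 and 242 CPM, as did *Sprr2a3*, at 60.7 and 185 CPM. The shallow cells of the other clusters were also raised for some of these genes, with *Abhd2* at 96.2 CPM by the mean over cells against 29.3 CPM over all other cells, and *Slc39a1* at 126 against 65.8 CPM.

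When only cells on the same side of 10000 UMIs were compared, many of the named ratios changed in size and fewer in direction. *Abhd2* was short of 2-fold on both sides, at 1.67 among cells with at least 10000 UMIs and 1.68 among those with under 10000. Among cells with at least 10000 UMIs, the 20 high genes lay between 1.202 (*Slc39a1*) and 2.15 (*Pla2r1*), and the 10 low genes between 0.22 and 0.47. Among cells with under 10000 UMIs, 18 of the 20 lay above 1, up to 2.09 for *Slc39a1*, and *Cmah* (0.94) and *Meis2* (0.88) lay below it. The 10 low genes lay between 0.17 (*Olfm4*) and 0.89 (*Clu*) there. *Pla2r1* was at 1.14 among the shallow cells, so neither of the 2 genes called 2-fold higher passed that fold there, and 6 of the 10 low genes were at 0.5 or less.

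Lists of genes for pathways and cell states mostly lay near the average. From summed UMIs, none of 47 lists had a member at least 2-fold higher, and 4 had a member at least 2-fold lower. Over all genes at 50 CPM, 0.0684% were 2-fold higher and 0.308% lower, so few such members could be found. In 5 of the 47 lists no gene reached that level. By means over cells some lists had a member at least 2-fold higher, among them *Cdh1* (2.16) and *Notch2*, a Notch receptor (2.05), and 4 had one or more lower, with *Gsta4* (0.40) and *Psmb9* (0.49) beside *Olfm4* and the class II genes. Among the 15 lists with at least 5 genes at 50 CPM, the median log2 ratio ran from -0.41, in the immediate early genes, to 0.13, in the tight junction claudins, beside 0.07 over all 2926 genes.

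Ribosomal protein genes were mostly lower and genes of oxidative phosphorylation were split. For the 22 cytosolic ribosomal proteins, 3 had a ratio above 1, where 60.7% of all genes did, and the median log2 ratio was -0.21, with the list summing to 72065 CPM against 79537 CPM. For the 20 nuclear genes of oxidative phosphorylation, 10 had a ratio above 1, and ratios ran from 0.84 (*Uqcrc1*) to 1.27 (*Atp5g3*), at a median log2 ratio of -0.02. None of these genes was 2-fold higher or lower, as was the case for nearly all genes.

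Genes of stress and damage differed by list. The 6 heat shock genes at this level had a median log2 ratio of -0.02, the 8 genes of the unfolded protein response one of -0.0022, and the 4 p53 targets one of -0.17, with *Gadd45a*, a damage response gene, at a ratio of 0.71. The 8 immediate early genes at 50 CPM respond to handling of tissue as well as to growth factors. They had 1 ratio above 1, beside 60.7% of all genes. *Fos* was at 0.46, *Jun* at 0.60 and *Junb* at 0.63, and *Klf4* was the highest at 1.17. For *Jun* and *Junb* too the highest cluster was cluster 9, and *Fos* was at 0.93 by the mean over cells. The whole list of 20 immediate early genes summed to 1444 CPM in cluster 10, 4 in the order of 16, against a median of 1351 CPM in the other clusters and 10990 CPM in cluster 9.

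The estrogen and progesterone receptor genes were slightly higher in cluster 10. *Esr1*, the main estrogen receptor of the uterus, was at 251 CPM against 217 CPM (ratio 1.16, interval 1.08 to 1.24), and *Pgr*, the progesterone receptor, at 116 against 96.2 CPM (ratio 1.21). *Ltf*, lactoferrin, which estrogen induces in the uterus, was at 1354 CPM against 2374 CPM (ratio 0.57, interval 0.55 to 0.59), with 4998 CPM in cluster 1, and its ratio was 0.79 by the mean over cells. Neither receptor reached a ratio of 2.

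Cell cycle genes were under the pooled average. The 20 genes of mitosis summed to 210 CPM in cluster 10 against 409 CPM in the pooled other cells, while the median of the other clusters was 211 CPM (range 138 to 1608). The 20 genes of DNA replication summed to 433 CPM against 496 CPM in the pooled cells and a median of 513 CPM. Wnt ligands, receptors and targets, a pathway that patterns the uterus, each had 2 or 3 genes at 50 CPM. None was past 2-fold, where 0.0684% of all genes were higher and 0.308% lower, so this says little about the pathway. *Erbb3*, a receptor of the EGF family and the 1 gene of 11 in that list at 50 CPM, had a ratio of 1.34. *Pik3r1*, the regulatory subunit of PI3K, had one of 1.38 (278 against 201 CPM), and cluster 10 was the highest of 16 for both. *Pik3r1* belongs to a list of 5 cancer-associated genes named in the study. Of the 4 at 50 CPM, it alone had a ratio above 1, beside 60.7% of all genes, and the median log2 ratio of the 4 was -0.57.

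Each cluster was set against all others in the same way to give a scale for these counts. Cluster 10 had the fewest genes past 2-fold, 11 in both directions, against 34 to 179 in the others, whose numbers of cells ran from 54 to 669. By means over cells it had 52, inside the range of the rest, and the 9 lower genes among them were fewer than in any other cluster (14 to 104). Its median absolute log2 ratio was 0.19 from summed UMIs and 0.30 by means over cells, the highest of the 16 on the second scale. In cells thinned to 3000 UMIs it had 73 genes higher and 28 lower, with a median absolute log2 ratio of 0.32, near the 0.32 and 0.34 of clusters 14 and 15, which have 67 and 54 cells. Counting error in so few UMIs adds to this measure, and its part was not tested.

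**Figure D4:**
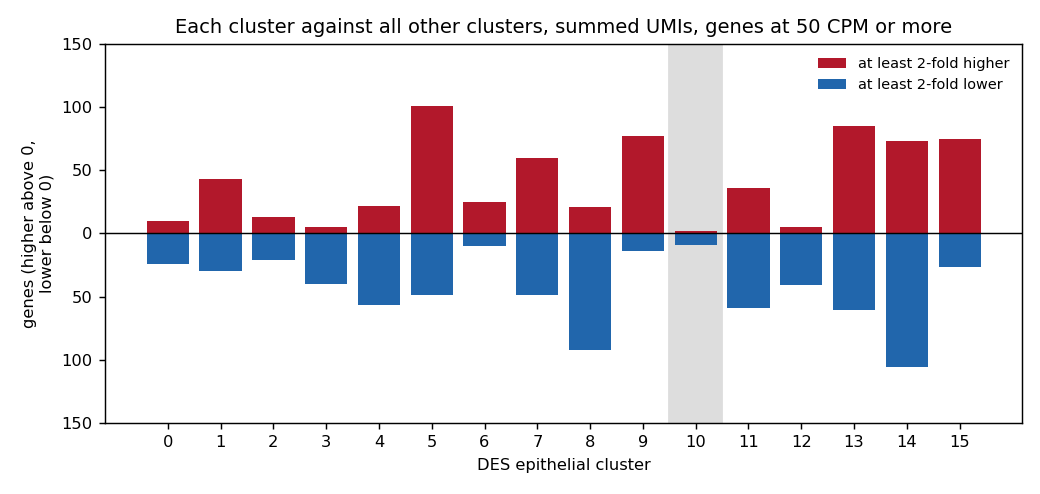
Number of genes at least 2-fold higher (red, above 0) or lower (blue, below 0) in each DES epithelial cluster against all other clusters, from summed UMIs over genes with at least 50 CPM on either side. Cluster 10, on the grey band, has 2 genes higher and 9 lower, the fewest of the 16.

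The profile of cluster 10 was closest to that of cluster 0. Over 3701 genes with at least 50 CPM in any cluster, Spearman's rho of log2(CPM + 1) was 0.960 with cluster 0, 0.943 with cluster 6 and 0.939 with cluster 1, and at the low end 0.859 with cluster 14. These values are across genes, and all clusters share 1 library. Against cluster 0 alone, 4 genes were at least 2-fold higher in cluster 10 and 7 at least 2-fold lower, the fewest in any such pair, and 1 of the 2 and 1 of the 9 genes named above were among them. *Abhd2* kept a ratio of 2.03 and *Yam1* one of 0.33, while *Crh* was at 0.33, *Fos* at 3.01 and *Cyr61* at 3.11. *Meis2* lay at 0.88. Against cluster 6, 7 genes were higher and 38 lower.

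CO epithelial clusters had lower rho with cluster 10 than the DES clusters had. Over 4688 genes with at least 50 CPM in any DES or CO cluster, the highest was 0.840, with CO cluster 2, and the other 15 DES clusters lay between 0.896 and 0.973 on the same genes. The CO cells came from another library, so treatment and library cannot be told apart in this comparison, and no test was made.

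The sections gave the one measure with replicates, and it was of the whole uterus rather than of these cells. The study reports a tissue fold in the second CO section and limited clusters in the second DES section. It used the first section of each group for most of its own work. From section totals, *Myh11*, a smooth muscle gene, was at 1855 and 1804 CPM in CO and 355 and 447 CPM in DES. The part of tissue make-up in the values below was not tested. For the 30 named genes, 1 changed between CO and DES sections at an adjusted p under 0.05 (edgeR's quasi-likelihood test, Benjamini-Hochberg over 14098 genes), where 5.3% of all genes tested did (2.67% higher and 2.63% lower in DES). That gene was *Olfm4*. It stood at 0.437 and 2.30 CPM in the CO sections and at 1397 and 1278 CPM in the DES sections, a log2 difference of 9.94 (SE 0.77, adjusted p = 0.0183). The 2 groups were far apart, but without the first or the second DES section the adjusted p was 0.0515 or 0.0577. In bulk sections, more cells of a type and more RNA per cell cannot be told apart.

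Of the 20 genes high in cluster 10, none passed the adjusted threshold in edgeR with all 4 sections and the filter on low counts, and 7 had an unadjusted p under 0.05, with 3 of them higher and 4 lower in DES, where 24.4% of all genes tested had one. By sign alone 6 were higher and 14 lower in DES, beside 49.6% higher over all genes. *Car12* stood at 158 and 141 CPM in the CO sections and at 46.1 and 69.1 CPM in the DES sections (log2 difference -1.37, SE 0.25, edgeR adjusted p = 0.0505), so the groups did not overlap, as in 56.4% of all genes tested. *Meis2* was at 29.6 and 41.8 CPM in CO and 73.4 and 84.7 CPM in DES (log2 difference 1.15, SE 0.23, edgeR adjusted p = 0.0626). In DESeq2 both passed, at an adjusted p of 0.000221 for *Car12* and 0.00263 for *Meis2*. *Car12* also passed in edgeR with DESeq2 size factors (adjusted p = 0.0499) and with no filter beyond 1 count (adjusted p = 0.0410). With the section number, which pairs no mice, as a block, *Car12* did not pass in edgeR (adjusted p = 0.0733). *Meis2* passed in none of these edgeR fits (adjusted p = 0.0594, 0.0532 and 0.0646, in that order). In fits without 1 section, log2 differences were -1.71 to -1.13 for *Car12* and 0.918 to 1.42 for *Meis2*. *Abhd2* was at 27.8 and 62.8 CPM in CO and 41.9 and 53.4 CPM in DES, which overlap, and *Pla2r1* at 10.8 and 33.1 CPM in CO and 20.8 and 22.1 CPM in DES, which overlap too.

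Of the 10 genes low in cluster 10, 7 had a positive log2 difference between DES and CO sections (49.6% of all genes). Of the 10, 6, all higher in DES, had an unadjusted p under 0.05, beside 11.6% of all genes with one and higher in DES. The 10 were chosen with a floor of 50 CPM in DES cells, and no floor was set in CO cells. A lean towards the DES sections can follow from that choice alone, so all genes tested are not a like background. *Cd74* was at 185 and 289 CPM in CO and at 794 and 2209 CPM in DES (log2 difference 2.66, SE 0.56, edgeR adjusted p = 0.0687), and without the second DES section the log2 difference was 1.73 (edgeR adjusted p = 0.188). *H2-Ab1* was at 88.5 and 151 CPM in CO and 381 and 783 CPM in DES (edgeR adjusted p = 0.0625), and *Serpinb7* at 35.9 and 7.48 CPM in CO and 393 and 421 CPM in DES (edgeR adjusted p = 0.0522). In these 3 the groups did not overlap, as in 56.4% of all genes tested, and the adjusted p missed the threshold in the main edgeR fit. The section numbers do not pair mice, so a block on them is arbitrary. With that block the edgeR adjusted p was 0.0392 for *Cd74*, 0.0317 for *H2-Ab1* and 0.0458 for *Serpinb7*. In DESeq2 the adjusted p was 9.08e-07 for *Cd74*, 2.32e-06 for *H2-Ab1* and 0.000654 for *Serpinb7*, all past it. With 2 sections a group, an exact permutation test of 1 gene could not give a two-sided p below 0.333.

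The 2 markers behaved differently there. *Epcam* was at 494 and 271 CPM in the CO sections and 396 and 477 CPM in the DES sections, with overlap between groups. *Crh* had no count in either CO section, and 12.6 and 76.9 CPM in the DES sections. The adjusted p was 0.0650 in edgeR and 0.000255 in DESeq2. A limit of 3 counts over both CO sections would be 0.127 CPM from section totals with no further scaling. The summed DES level on that scale, 48.6 CPM, was 381 times this limit. Such a limit covers counting error only and not the spread between mice. Of the 923 DES counts 797 came from the second section. The first alone, at 13.8 CPM from section totals, was 108 times the limit.

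**Figure D5:**
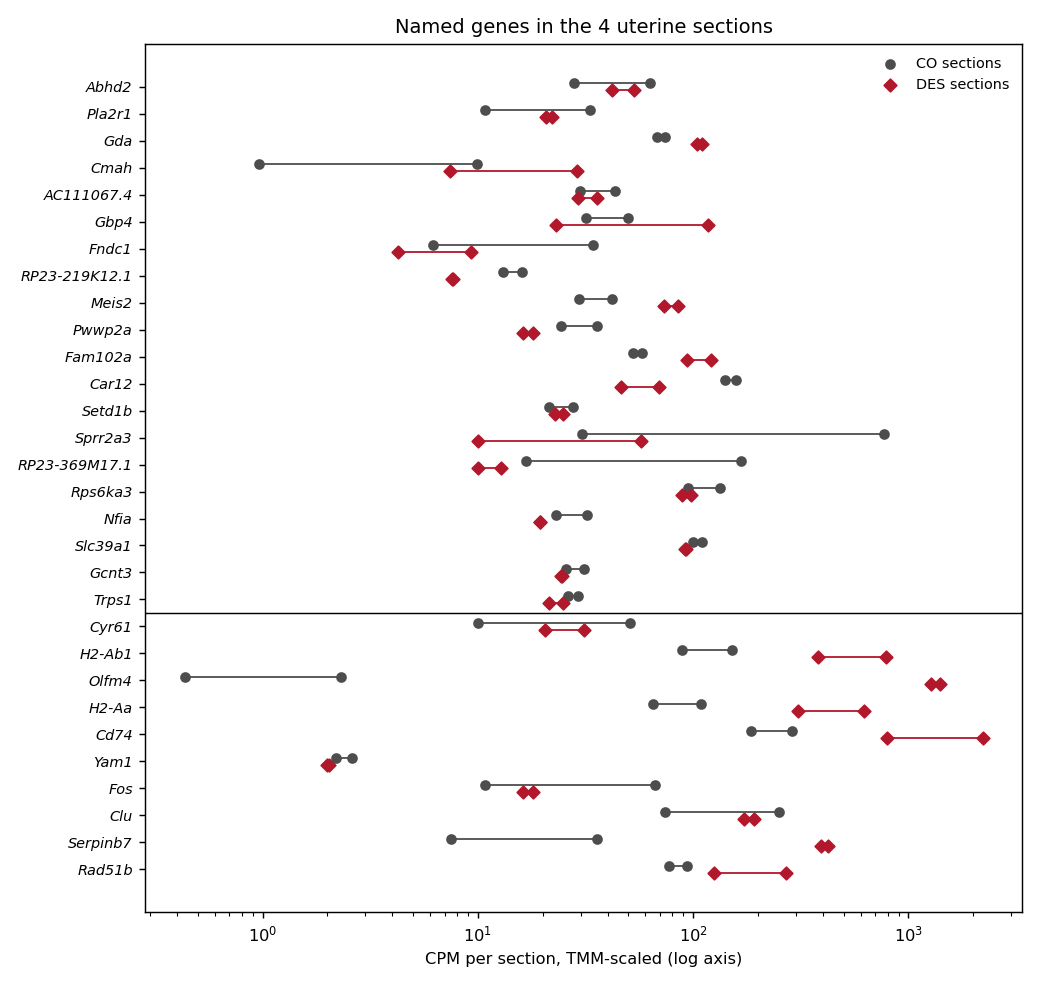
CPM of the 20 highest and 10 lowest genes of cluster 10 in the 2 CO (grey circles) and 2 DES (red diamonds) uterine sections, on a log axis; each point is 1 section and lines join the sections of a group. Olfm4 is near 1 CPM in CO and above 1000 CPM in DES, the class II genes and Serpinb7 are apart in the same direction, and most of the upper genes overlap or lie close together.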

How the data were processed

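Per the labels, tissue was dissociated and read with the 10x Genomics Chromium 3' v3 kit, or sectioned for the Visium kit. The authors made the deposited UMI counts with Cell Ranger 3.0.1 (cells) or Space Ranger 1.2.2 (spots) on mm10 (GRCm38), and these counts are not normalized. The authors' deposited metadata give each cell's saturation as a fraction, its reads, its quality flag and, as the authors' labels, its type and clusters. Of the metadata rows, 350 have no count column, 1 of the 167 cluster 10 cells among them, and they were left out. CO and DES libraries share 180 barcode sequences, 1.10% of the DES barcodes, 1 of them in cluster 10. Gene positions are those of GENCODE M21.

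The authors had marked and removed likely doublets with scran, and cells that Scrublet scored as doublets were kept here in the main values. UMIs were summed over cells (Python 3.11.15, scanpy 1.11.5 for Scrublet) and scaled to CPM. A gene needed 50 CPM on either side, and 2-fold was the call. The 20 highest genes also needed a UMI in 10% of cluster 10 cells thinned to 3000 UMIs. With 1 library per treatment no test was made on cells. Section counts were summed over all spots (9117099 to 12506177 UMIs each) and fitted in edgeR 4.0.16 with TMM and filterByExpr, and DESeq2 1.42.0 was an alternative. The numbers of the sections do not pair mice. The script was tested on simulated data. The cluster, its gene lists and the comparisons were chosen with earlier results of these data known.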

Additional observations from a re-analysis of the deposited data

How the results depend on the processing

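The share of clustered cells in cluster 10 was 1.39% among cells with at least 10000 UMIs, and stayed within its interval without the Scrublet doublets or cells over 20% mitochondrial. The number of genes at least 2-fold higher, 2, became 43 by means over cells, 4 without the 20 most abundant genes, 1 in deep cells, 16 against the median cluster, 7 at a floor of 20 CPM and 73 in thinned cells. With 3 settings chosen after seeing the data it was 5 without the 20 deepest cells of cluster 10, 46 in cells under 10000 UMIs and 4 against cluster 0 alone. High genes that turned below 1 were *Sprr2a3* without the 20 deepest cells (0.86) and *Cmah* (0.94) and *Meis2* (0.88) in cells under 10000 UMIs. Against cluster 0 alone they were *Meis2* (0.88) and *Gcnt3* (0.996). The number at least 2-fold lower, 9, became 14 in deep cells, 2 against the median cluster, 25 at a floor of 20 CPM, 28 in thinned cells and 51 in cells under 10000 UMIs, and stayed between 7 and 11 otherwise. Low genes that turned above 1 were *Clu* by means over cells (1.32), and, against the median cluster and cluster 0 in that order, *Cyr61* (1.28, 3.11), *H2-Ab1* (1.43, 1.43), *Olfm4* (1.98, 2.34), *H2-Aa* (2.50, 2.50), *Cd74* (1.78, 1.78) and *Fos* (1.55, 3.01).

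In the sections, edgeR called 376 genes higher and 371 lower in DES, and DESeq2 called 805 and 951. With the section number as a replicate block the counts were 298 and 229. The numbers share no mouse, and same-numbered sections had a correlation of deviations of -0.0254. Without 1 section each in turn the counts ran from 3 to 1311 and from 0 to 1508. They were lowest without a DES section (14 or 3 higher) and highest without the first CO section, and in each such fit the lone section was assumed to vary like the other group. The counts of 0 stood beside 1722 and 1712 genes at an unadjusted p under 0.05. *Olfm4* kept its direction in every fit. Of the 31 other named genes and markers, which missed the threshold in the main edgeR fit, 9 passed it in DESeq2 (*Meis2*, *Fam102a*, *Car12*, *H2-Ab1*, *H2-Aa*, *Cd74*, *Serpinb7*, *Rad51b* and *Crh*). Over all genes with an adjusted p there, 5.38% were called higher and 6.35% lower in DES. Under the block 5 passed (*H2-Ab1*, *H2-Aa*, *Cd74*, *Serpinb7* and *Crh*), beside 2.11% of all genes higher and 1.62% lower. With no filter beyond 1 count 5 passed (*Car12*, *H2-Ab1*, *H2-Aa*, *Serpinb7* and *Crh*), beside 2.23% higher and 2.12% lower. *Pla2r1* (0.17) and *Cyr61* (0.14) turned under the block, and in fits without 1 section *Abhd2* ran from -0.40 to 0.77, *Pla2r1* from -0.63 to 0.99, *AC111067.4* from -0.42 to 0.11, *Gbp4* from -0.84 to 1.51, *Fndc1* from -2.34 to 0.12, *Setd1b* from -0.21 to 0.16, *Sprr2a3* from -5.37 to 0.14, *Cyr61* from -0.97 to 1.37, *Fos* from -1.96 to 0.67, *Clu* from -0.46 to 1.31 and *Epcam* from -0.18 to 0.69 (log2). The cause was not tested.

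The depth of cluster 10 limits these values. Its shallow cells hold under 10000 UMIs each, a gene at 50 CPM rests on about 163 UMIs over the whole cluster, and ratios of rarer genes have wider counting intervals.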

Other observations

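Secreted and protective genes of the uterine lining differed among themselves in cluster 10. In the list of mucosal defence and secretory genes, 3 of 8 at 50 CPM had a ratio above 1, beside 60.7% of all genes. Their median log2 ratio was -0.11, and *Clu* was lowest, at a ratio of 0.46. *Muc4*, a membrane mucin, was at 92.1 CPM against 63.5 CPM in the other clusters (ratio 1.45, interval 1.29 to 1.63), *Pigr*, which carries antibodies across epithelia, at 254 against 211 CPM, and *C3*, a complement protein, at 1102 against 930 CPM (ratio 1.18). *Prap1*, a proline-rich secreted protein, was at 2062 against 2479 CPM (ratio 0.83). Each of these was exceeded by at least 1 other cluster, and *C3* reached 2048 CPM in cluster 1.

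Antioxidant enzymes were also split. *Gsto1*, a glutathione transferase, was at 2289 against 1601 CPM (ratio 1.43), *Txnrd1*, a thioredoxin reductase, at 120 against 94.2 CPM (ratio 1.27), and *Gsta4*, which detoxifies lipid aldehydes, at 71.6 against 109 CPM (ratio 0.66, or 0.40 by the mean over cells). Of the 15 genes of that list at 50 CPM, 6 had a ratio above 1, beside 60.7% of all genes. None was 2-fold higher or lower from summed UMIs, where 0.0684% of all genes were higher and 0.308% lower. Uroplakins, plaque proteins of the bladder lining, had 1 gene at that level, *Upk1a*, with a ratio of 1.46 and 421 CPM in cluster 5. *H2-D1*, a class I histocompatibility gene, was lowest in cluster 10 of all 16 clusters, at 341 against 535 CPM (ratio 0.64). These genes were picked from the lists after their values were seen.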
